A study of Mus musculus with 38 samples.

Results

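Acetylation of lysine 18 of histone H3 (H3K18ac) was mapped in bone marrow-derived macrophages of C57BL/6 mice that had been polarized or left resting, and 11125 acetylated regions present in both states carried no peak of lactylation at the same lysine (H3K18la) in either. They were chosen by the presence and length of peaks in the 4 lists: each was a peak of the M1 H3K18ac list shorter than 10000 bp that shared at least 1 bp with a peak of the M0 H3K18ac list and shared none with a peak of the M1 or the M0 H3K18la list. They made up 11125 of the 39625 M1 H3K18ac peaks under that length, and of 42237 M1 H3K18ac peaks of any length. M1 macrophages had received LPS at 5 ng/ml and IFNg at 12 ng/ml for 24 h, and M0 macrophages had received neither. Chromatin was cut with micrococcal nuclease and 1 library was made for each mark in each state, so that no peak value has a replicate or a test. RNA came from the same kind of cell in 8 groups of 4 libraries: with LA, which is lactic acid, added 4 h into stimulation and harvested at 8, 16 and 24 h (read as hours of stimulation, after the name of the label), and without it at 0, 4, 8, 16 and 24 h of LPS and IFNg. The labels give no dose of LA, and they do not say whether libraries of a group came from separate animals or cultures, so p-values measure only the spread between these libraries.

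H3K18ac is laid down mainly by the acetyltransferases p300 and CBP and is a mark of active promoters and of enhancers, the distal elements that raise transcription of genes some way off. H3K18la uses the lactyl group, which derives from lactate, on the same lysine, and was described in macrophages that turn to glycolysis after LPS and IFNg. A region with an H3K18ac peak and no H3K18la peak is therefore one where 1 of the 2 acyl marks was called. It is not one shown to lack lactylation, because the lists hold no value below the caller's threshold and the H3K18la libraries were smaller: 21.0 M mouse reads in M1 and 21.8 M in M0, against 32.9 M in M1 and 36.6 M in M0 for H3K18ac. Below, unlactylated means only without a called H3K18la peak, and lactylated means with one. The other H3K18ac peaks of M1 under 10000 bp fell into 2 sets used below for comparison. H3K18la lay over 16083 shared peaks, of which 9051 had it in both states, 790 in M1 only and 6242 in M0 only, and the remaining 12417 peaks had no M0 H3K18ac peak.

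The macrophage label held in the RNA. All 12 macrophage markers looked up were in the deposited table, and their summed level ran from 40300 to 52900 RPKM at 24 h and from 22100 to 24500 RPKM at 0 h. Most of that sum was Lyz2, which averaged 36900 RPKM at 24 h and 16500 at 0 h. By the limma test used below, 8 of the 12 were higher at 24 h and 2 lower. With libraries scaled to an equal sum over the listed genes, 6 were higher and 4 lower. Csf1r averaged 148 RPKM at 24 h and 371 at 0 h. For other cell types the table listed only some markers, and the level of the rest is not known. The 2 of 7 dendritic markers listed summed to at most 2.98 RPKM at 24 h and 1.09 RPKM at 0 h, 2 of 14 markers of T, B and NK cells to at most 5.86 and 6.72 RPKM, 7 of 10 stromal and endothelial markers to at most 1.86 and 4.13 RPKM, and 6 of 10 neutrophil markers to at most 43.1 and 24.9 RPKM. The table listed 0 of 9 markers of erythroid and mast cells. Reads in listed genes, estimated from the whole-read steps between low RPKM values and not counted, ran from 59.7 to 102.3 M per RNA library.

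Few of these regions touched a gene start, and those that did had starts poor in CpG, the dinucleotide in which promoters of broadly expressed mammalian genes are rich. Printed below are the 250 bases before the start of 4 genes whose start region lay wholly under such a peak. Those of 3 genes of the same response follow, whose starts carried H3K18la in M1 and in M0. The genes of both sets were picked to illustrate, and CpG is in capitals. Il6 codes for the fever-inducing cytokine interleukin 6 (chr5:30012864-30013113, plus strand), Mmp13 for a collagenase (chr9:7272264-7272513, plus strand), F10 for coagulation factor X (chr8:13037058-13037307, plus strand) and Fabp3 for a fatty acid-binding protein (chr4:130308488-130308737, plus strand). Sequences are from RefSeq on GRCm38.p6, the build of the peaks, written 5′ to 3′ on the strand of the gene.
Il6: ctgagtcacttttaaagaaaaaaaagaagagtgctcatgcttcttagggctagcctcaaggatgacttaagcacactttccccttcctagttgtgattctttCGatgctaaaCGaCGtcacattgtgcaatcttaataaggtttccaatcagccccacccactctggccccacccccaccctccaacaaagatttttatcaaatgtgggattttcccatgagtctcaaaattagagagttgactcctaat
Mmp13: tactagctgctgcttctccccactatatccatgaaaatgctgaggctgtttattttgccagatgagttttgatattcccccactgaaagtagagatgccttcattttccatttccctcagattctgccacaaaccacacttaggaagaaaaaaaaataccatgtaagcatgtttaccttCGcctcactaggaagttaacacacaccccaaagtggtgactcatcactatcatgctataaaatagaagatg
F10: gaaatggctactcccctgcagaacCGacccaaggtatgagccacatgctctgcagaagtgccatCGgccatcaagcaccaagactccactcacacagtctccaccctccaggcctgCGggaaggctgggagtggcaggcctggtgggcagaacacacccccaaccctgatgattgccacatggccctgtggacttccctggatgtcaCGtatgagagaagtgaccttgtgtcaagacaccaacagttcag
Fabp3: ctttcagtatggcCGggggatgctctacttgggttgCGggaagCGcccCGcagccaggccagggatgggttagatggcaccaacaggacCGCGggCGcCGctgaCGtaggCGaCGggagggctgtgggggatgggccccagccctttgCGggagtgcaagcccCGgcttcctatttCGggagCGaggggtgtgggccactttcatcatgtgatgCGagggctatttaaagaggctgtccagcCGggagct
Tnf codes for tumour necrosis factor (chr17:35202008-35202257, minus strand), Irf1 for a transcription factor of the interferon response (chr11:53769764-53770013, plus strand) and Slc2a1 for the glucose transporter GLUT1 (chr4:119108495-119108744, plus strand).
Tnf: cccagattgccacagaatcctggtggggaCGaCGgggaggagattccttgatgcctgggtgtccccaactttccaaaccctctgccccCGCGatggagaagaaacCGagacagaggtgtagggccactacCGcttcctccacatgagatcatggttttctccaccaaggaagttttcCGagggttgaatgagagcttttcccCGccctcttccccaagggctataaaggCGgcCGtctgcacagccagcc
Irf1: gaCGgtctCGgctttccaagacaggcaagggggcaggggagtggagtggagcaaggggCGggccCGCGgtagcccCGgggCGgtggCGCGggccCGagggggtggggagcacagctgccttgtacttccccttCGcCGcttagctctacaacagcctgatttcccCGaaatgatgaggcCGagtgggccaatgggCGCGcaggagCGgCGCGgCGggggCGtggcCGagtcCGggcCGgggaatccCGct
Slc2a1: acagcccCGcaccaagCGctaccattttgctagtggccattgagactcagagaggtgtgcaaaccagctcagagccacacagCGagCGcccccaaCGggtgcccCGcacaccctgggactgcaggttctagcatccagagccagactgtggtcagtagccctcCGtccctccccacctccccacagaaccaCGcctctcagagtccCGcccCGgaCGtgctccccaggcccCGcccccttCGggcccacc
Among the 4 without H3K18la, 3 had few CpG: 1 in Mmp13, 3 in Il6 and 4 in F10. Fabp3 had 17, which places it with the lactylated starts in this respect, where Tnf had 10, Slc2a1 had 13 and Irf1 had 25. The examples do not split cleanly: by the ratio of observed to expected CpG used below, Tnf had 0.44, under the cut of 0.6. Fabp3 had 0.71, Slc2a1 0.6 and Irf1 0.91. Of the motifs searched, the Il6 stretch held AP-1 (TGANTCA) beginning 249 bases before the start, C/EBP (TTGCNNAA) at 128 and CCAAT at 106, and the Mmp13 stretch held AP-1 at 35, ETS (GGAAGT) at 61 and the paired IRF core (GAAA 2 bases before a further GAAA) at 146. Both strands were read, and a match describes letters and not a bound factor.

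The difference in CpG is read from all starts and not from the examples. RefSeq gave 655 starts of 565 genes that lay within 1000 bp of one of these regions with no H3K18la peak of either state within 1000 bp of the same start. For 73 of the starts, the gene had H3K18la near another start. In the 300 bases around them, from 250 before to 50 after, the ratio of observed to expected CpG had a median of 0.24, against 0.80 at 9147 starts with H3K18la in both states and 0.24 at 18724 starts without an M1 H3K18ac peak. A ratio of at least 0.6 was reached by 14.8% of the first, 75.9% of the second and 14.3% of the third, and by 35.8% of every listed start. Among protein-coding genes alone the shares were 26.0% of 312 starts, 78.6% of 7917 and 20.05% of 10071. Low CpG was not particular to these regions: 1047 starts with another M1 H3K18ac peak and no H3K18la had a median of 0.22, and 8.2% reached 0.6. The GC box (GGGCGG, both strands) followed CpG: it was in 24.0% of the unlactylated starts, 65.0% of those lactylated in both states and 35.6% of every start. Other motifs ran the opposite way. C/EBP letters were in 17.7% of the unlactylated starts, against 7.99% of the lactylated ones and 10.8% of every start, and AP-1 letters were in 9.31%, against 4.86% and 7.81%. The C/EBP share also stood above the 12.2% of starts without an M1 H3K18ac peak, where CpG content was the same, while the AP-1 share there was 9.36%. At the 1047 starts with another M1 H3K18ac peak and no H3K18la, C/EBP letters were in 12.1%, AP-1 letters in 10.2% and the GC box in 15.4%. C/EBP factors and PU.1, which reads an ETS core, set up macrophage genes, and the ETS letters were in 27.3% of the unlactylated starts, 31.5% of the lactylated ones and 23.8% of every start.

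**Figure D1:**
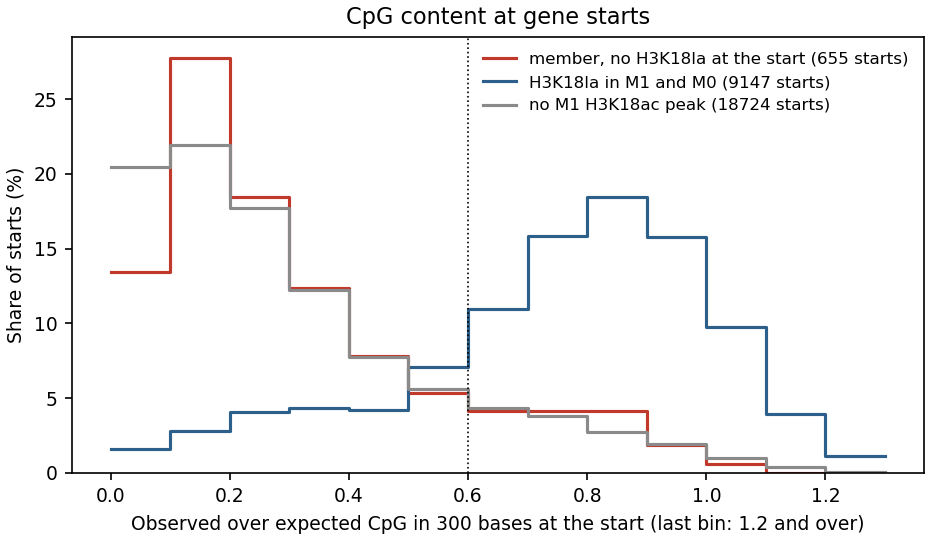
Share of gene starts (%, vertical) by the observed over expected CpG ratio in 300 bases (horizontal, bins of 0.1), for 655 starts at a shared H3K18ac peak without H3K18la, 9147 with H3K18la in M1 and M0, and 18724 without an M1 H3K18ac peak. The first and the third lie together below the dotted line at 0.6, and the lactylated starts lie mostly above it.

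The regions were narrower and less enriched than peaks lactylated in both states, and wider and slightly more enriched than peaks without an M0 counterpart. Their median width was 1468 bp (quartiles 787 and 2729 bp), against 2400 bp for peaks lactylated in both states, 1017 bp for H3K18ac peaks without an M0 counterpart and 1516 bp for all M1 H3K18ac peaks under 10000 bp. The authors' fold enrichment, the ratio of signal in the peak to the caller's background, had a median of 3.295 with 10% of regions below 2.904 and 10% above 3.998, while the median was 5.077 in peaks lactylated in both states, 3.142 in those without an M0 counterpart and 3.502 in all. The median -log10 q was 3.51 for the unlactylated regions and 9.92 for peaks lactylated in both states. The same peak lists chose the regions, so these values are given as a description.

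Along the M1 list, the unlactylated shared regions peaked in the lower middle. They were 32.3% of the decile of peaks with the lowest enrichment, 42.9% of the fifth decile (enrichment 3.322 to 3.502), 16.8% of the eighth and 0.732% of the highest decile, which held 29 of them among 3963 peaks. Peaks with H3K18la climbed over the same steps to 95.6% in the highest decile.

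**Figure D2:**
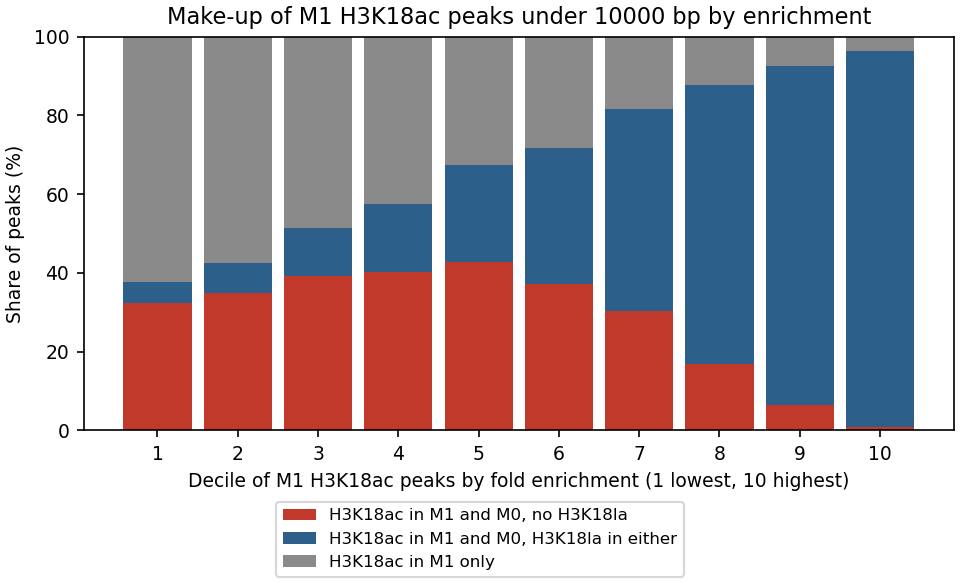
Share (%) of M1 H3K18ac peaks under 10000 bp in each decile by fold enrichment, lowest to highest, that were shared with M0 without H3K18la (red), shared with H3K18la in either state (blue), or seen in M1 only (grey). The red share is 42.9% in the fifth decile and 0.732% in the highest.

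None of the 10 regions with the highest M1 enrichment lay within 1000 bp of a listed gene start, the nearest 1524 bp from one. The first, chr9:61904351-61905242, had an M1 enrichment of 6.42 and lay 8.0 kb from Rplp1, a ribosomal stalk protein gene, and its M0 peak had 3.302. A region of 2110 bp at chr10:19208914-19211023 had 6.293 in M1 and 3.381 in M0, and lay 145.5 kb from the nearest listed protein-coding gene, Olig3. Within gene bodies lay chr8:115045445-115047410 in Wwox, an oxidoreductase gene (6.181 in M1 and 3.495 in M0), chr19:7226341-7227415 in Naa40, a histone N-terminal acetyltransferase gene (5.893 and 3.591), chr13:91679126-91685295 in Ssbp2 (5.864 and 3.421), chr19:16381808-16383149 in Gnaq, which codes for a G protein alpha subunit (5.791 and 3.935), and chr1:181393913-181396599 in Cnih3 (5.75 and 3.77). The region at chr6:72381993-72383945 lay 1.3 kb from Vamp8, a vesicle fusion gene, and 1.5 kb from the nearest H3K18la peak (6.059 and 4.245). The remaining 2 lay at chr12:115011391-115011861 (6.3 and 3.931) and at chr5:25662794-25663532, 26.3 kb from Xrcc2 (6.045 and 4.204). In each of the 10 the M1 value was the higher of the 2, which follows from ranking by M1.

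Most regions matched a single M0 peak. Of the 11125, 10604 (95.3%) lay over 1 M0 H3K18ac peak, 8979 (80.7%) were matched one to one, and 7689 (69.1%) were covered by M0 peaks over at least 50% of their length. In the one-to-one pairs the median width was 1463 bp in M1 and 1239 bp in M0, and the median enrichment 3.313 in M1 and 3.515 in M0. The 2 enrichments tracked each other loosely across pairs (Spearman's rho 0.24, a description over regions that share 2 libraries). The highest M1 over M0 ratio belonged again to the region near Rplp1, followed by that near Olig3, 1 in Hs2st1 (5.378 in M1 and 2.943 in M0), 1 near Tmem106c (5.587 and 3.061) and that in Wwox. Among those with the lowest M1 over M0 ratio were a region in Adgra2, an adhesion receptor gene (chr8:27104684-27105851, 2.822 in M1 and 5.567 in M0), 1 near Dynll1 (2.899 and 5.567), 1 near Siah2 (2.729 and 5.0) and 1 more (2.559 and 5.58). Each list has its own background, so no change is read from these pairs.

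The length limit removed little. Of 11243 shared unlactylated regions of any length, 118 reached 10000 bp or more, the longest 42290 bp. Just inside were regions of 9987, 9990 and 9998 bp with M1 enrichments of 3.348, 3.699 and 4.164, and just outside regions of 10036, 10079 and 10109 bp with 3.941, 3.84 and 4.405.

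Distance to lactylation varied widely. The nearest H3K18la peak of either state lay a median of 9690 bp away (quartiles 4377 and 22773 bp). It was within 1000 bp of 182 regions (1.64%), within 5000 bp of 3213 (28.9%) and within 50 kb of 10042 (90.3%). Peaks seen in M1 only had a median of 11778 bp, with 25.9% within 5000 bp.

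Regions without H3K18la and peaks of like enrichment lactylated in both states lay differently relative to genes. Of the 10838 regions outside chromosome 18, for which the table of starts has no entry, 558 (5.15%, Wilson interval 4.75% to 5.58% for counting error) lay within 1000 bp of a listed gene start. The share was 64.6% of the 8805 peaks with H3K18la in both states (63.58% to 65.58%), 27.4% of those with H3K18la in M0 only, 12.9% of those with it in M1 only and 4.07% of peaks seen in M1 only. Both intervals treat peaks as independent draws, although the regions were crowded in places. They hold no spread between libraries, so the precision of the shares is not known. Listed starts covered 17492 of 21389 protein-coding genes, and counting either end of genes without one gave 6.26% of the unlactylated regions and 74.3% of the peaks lactylated in both states. In the unlactylated regions and in peaks lactylated in both states the share changed little with enrichment. Among peaks with an enrichment of 3 to 3.5 it was 5.11% of 5186 unlactylated regions and 61.8% of 262 peaks lactylated in both states, and among those of 4.5 to 5 it was 4.66% of 236 and 64.4% of 1651. In peaks seen in M1 only it was 4.00% and 9.22% in the same 2 ranges, and over all shared peaks with H3K18la, whose make-up changes with enrichment, 29.9% and 53.2%. It did not follow width in the unlactylated regions either, where it lay between 4.45% (1000 to 2000 bp) and 6.52% (4000 bp and longer).

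**Figure D3:**
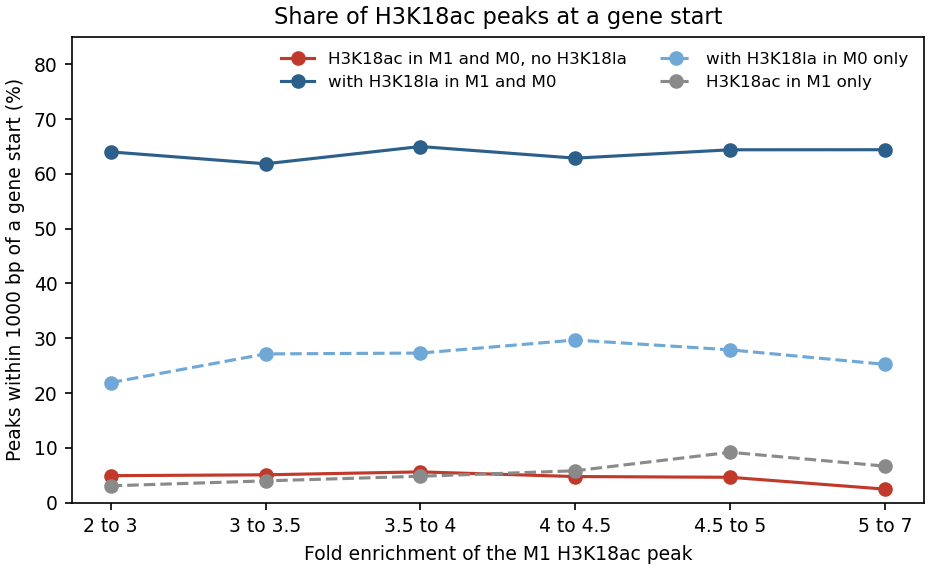
Share of peaks within 1000 bp of a listed gene start (%, vertical) by the M1 fold enrichment of the peak (horizontal, 6 bins), for shared peaks without H3K18la (red), with H3K18la in M1 and M0 (dark blue), with H3K18la in M0 only (light blue) and for peaks seen in M1 only (grey). The red line stays between 2.5% and 5.64% and the dark blue line between 61.8% and 65.0% in every bin.

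Away from starts, 5753 regions (53.1%) lay in the body of a protein-coding gene and 4527 (41.8%) between genes, where peaks lactylated in both states had 24.3% and 11.2%. The median distance to a start was 21253 bp. The X chromosome held 105 regions (0.944%), against 2.25% of all peaks with H3K18la. By class it held 1.735% of peaks with H3K18la in both states, 3.19% of those with it in M0 only and 0.759% of those with it in M1 only. Of H3K18ac peaks seen in M1 only it held 1.55%.

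The regions were crowded in places. Cut into windows of 500 kb, the genome had 2468 windows with at least 1 region and a median of 3 in those, and 255 windows with 10 or more held 3373 regions (30.3%). The window with the most, 34 of its 48 M1 H3K18ac peaks, lay in Fat3, a giant protocadherin gene whose RNA was low (0.394 ± 0.148 RPKM at 24 h and 0.449 ± 0.0842 at 0 h, SD, n = 4 each) and which the filter on low values left untested. The next was that of Bcl2l11 and Acoxl with 26 of 47, Bcl2l11 coding for the cell death activator BIM. The window of the transcription factor gene Runx1 had 25 of 38 and that of Vav3, which codes for a guanine nucleotide exchange factor, 25 of 47. Others held the cholesterol exporter gene Abca1 (24 of 41), the actin-linked adaptor gene Lpp (23 of 33), the phosphoinositide kinase gene Pik3cg (22 of 45), the repair gene Rad51b (22 of 30), Il6st, which codes for the shared receptor chain of the interleukin 6 family (22 of 42), and the transcription factor gene Klf6 (21 of 39). A window on chromosome 15 from 67.5 to 68.0 Mb had 21 and held no protein-coding gene.

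**Figure D4:**
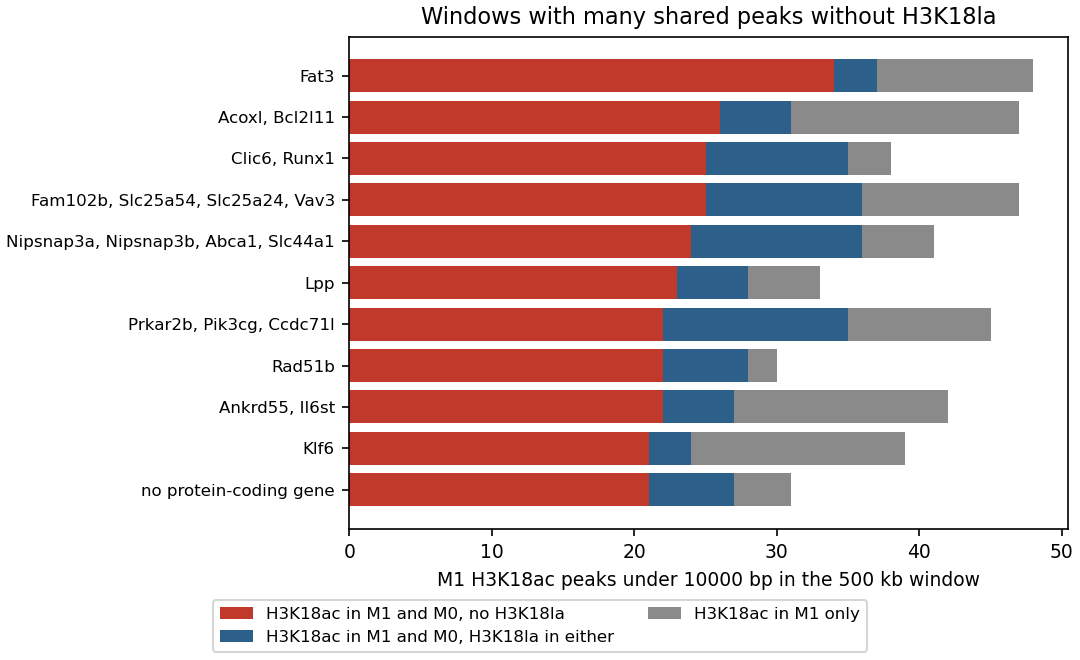
M1 H3K18ac peaks under 10000 bp (horizontal, count) in 11 of the windows of 500 kb with the most shared peaks without H3K18la, each row named by the protein-coding genes that reach into it, split into shared without H3K18la (red), shared with H3K18la (blue) and seen in M1 only (grey). The Fat3 window has 34 red of 48 and that of Runx1 has 25 of 38.

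RNA of the genes in these windows moved in both directions at 24 h against 0 h. Bcl2l11 averaged 3.75 ± 0.415 RPKM at 24 h and 6.2 ± 0.818 at 0 h (SD, n = 4 each, log2 fold change -0.60 ± 0.07 SE, limma adjusted p = 1.9e-08), and Runx1 2.05 ± 0.296 and 2.72 ± 0.174 (-0.29 ± 0.06, limma adjusted p = 0.00012). Abca1 averaged 8.7 ± 2.97 at 24 h and 15.9 ± 3.65 at 0 h (-0.83 ± 0.16, limma adjusted p = 2.5e-05). Prkar2b, a regulatory subunit gene of protein kinase A in the window of Pik3cg, in contrast averaged 14.3 ± 1.16 at 24 h and 7.92 ± 1.3 at 0 h (0.79 ± 0.09, limma adjusted p = 2.5e-09), and Klf6 averaged 74.8 ± 8.66 at 24 h and 61.0 ± 2.61 at 0 h (0.28 ± 0.08, limma adjusted p = 0.0012). Scaling every library to an equal sum over the listed genes moved the median log2 fold change of all tested genes to -0.38. Prkar2b alone among the tested genes of the 11 windows then remained higher past the threshold, with a log2 fold change of 0.36 (limma adjusted p = 0.0021). That of Klf6 was then -0.19 and did not pass the threshold (limma adjusted p = 0.066). These genes were chosen for the regions around them after the values were known. By gene body, 3229 protein-coding genes hosted at least 1 region and 237 hosted 5 or more: Fat3 had 35, Lpp 28, Rad51b 19, and Gnaq and the SUMO ligase gene Nsmce2 had 16 each. The first 3 genes are long, at 592.5, 599.2 and 551.0 kb. Per 100 kb they hosted 5.91, 4.67 and 3.45, against 7.03 in Nsmce2 and 8.18 in Ankrd11, which hosted 13.

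Most genes listed for the macrophage line had regions nearby, and few had one at a listed start. Of 31 macrophage lineage factors, 28 had at least 1 region within 50 kb, with 106 summed over the list and 11 at Runx2, where 41.0% of 21900 protein-coding genes and 57.4% of the 10949 protein-coding genes in the RNA table had one. Of the 24 with a listed start, 1 had a region there, Tfeb, the master gene of lysosome formation. Tfeb also had H3K18la within 1000 bp of a listed start, which may be the same start or another. At 24 h against 0 h, 18 of the 29 tested lineage factors were higher and 9 lower, where 39.9% of all tested genes were higher and 37.3% lower. Scaled to an equal sum over the listed genes, 11 were higher and 11 lower. Of 9057 genes in the RNA table with a listed start, 1.94% had a region within 1000 bp of a start and 90.7% had H3K18la there. Read against that background, none of the 24 interferon-stimulated genes with a listed start had a region there, nor any of 27 of Toll-like receptor signalling, 23 of glycolysis or 23 of the cell cycle, and H3K18la lay there in 24, 27, 22 and 23 of them. Among 21 inflammatory mediators with a listed start, 10 had H3K18la there, and 3 had a region and no H3K18la: Il6, Cxcl1 and Saa3. Among 14 markers of alternative activation with a listed start, 7 had H3K18la there, and 2 had a region and no H3K18la: Ccl17 and Ccl22. At 24 h against 0 h, all 27 tested inflammatory mediators were higher, and of 16 tested markers of alternative activation 7 were higher and 8 lower. With the equal-sum scaling 26 of the 27 mediators were higher and none lower, and of the 16 markers 6 were higher and 9 lower.

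The shares of genes that rose and fell differed little with the number of regions in reach. Of 565 tested genes with 5 or more regions in the gene or within 50 kb, 38.6% rose and 40.2% fell at 24 h against 0 h. Of 4191 tested genes with none, 38.9% rose and 37.7% fell, and with 1 or 2 regions in reach 41.0% of 3913 rose and 36.7% fell.

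MicroRNA hairpins were looked up in the regions. The share of the genome that the regions cover was not counted, so the number found is a description. Of 1005 RefSeq miRNA hairpins, 11 lay in the regions: Mir15b with Mir16-2 and Mir141 with Mir200c, 2 pairs that are each transcribed together, and Mir3095, Mir3970, Mir6386, Mir6905, Mir6931, Mir6932 and Mir6994. The pair Mir15b and Mir16-2, which limits cell division, lay in chr3:69008981-69010070, with an enrichment of 3.055 in M1 and 6.08 in M0. The pair Mir141 and Mir200c, of the miR-200 family that keeps epithelial identity, lay in chr6:124717072-124721781 (3.239 in M1 and 3.624 in M0). Their main mature forms are printed with the seed, bases 2 to 8, in capitals, since it is the seed that pairs with targets.
mmu-miR-15b-5p: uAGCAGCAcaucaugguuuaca
mmu-miR-16-5p: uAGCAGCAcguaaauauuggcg
mmu-miR-141-3p: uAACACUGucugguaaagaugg
mmu-miR-200c-3p: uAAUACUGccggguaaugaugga
The first 2 share the seed AGCAGCA, and the seeds of the other pair are AACACUG and AAUACUG. Libraries of messenger RNA do not measure mature miRNAs, so no level is given.

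Genes with a region at the start were read in the RNA table next. In all 575 genes, 282 of them protein-coding, had a region within 1000 bp of a start, 504 with no H3K18la near any start and 71 with H3K18la as well. The deposited table listed 176 of the 575, and 121 of the 504. Among protein-coding genes 52.9% of those without H3K18la were listed, against 95.5% of those lactylated in both states and 7.34% of those without an M1 H3K18ac peak. The authors listed mainly genes that passed their own test, and every share of genes called is taken within that list. A filter of at least 1 RPKM in at least 4 libraries kept 134 of the 176 and 86 of the 121, so that 35 of the genes without H3K18la lay below it. A gene can pass through the group where it is high, so the counts over tested genes describe those genes alone. The tested genes without H3K18la had a median of 2.90 RPKM at 24 h and 2.21 at 0 h, against 7.84 and 7.81 for genes lactylated in both states.

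At 24 h against 0 h, in limma at a Benjamini-Hochberg adjusted p under 0.05 over 9942 genes, 67 of the 134 genes were higher, where 39.9% of all tested genes were, and 43 were lower, where 37.3% of all tested genes were. The median log2 fold change was 0.13, against 0.02 over all tested genes. Of the 86 without H3K18la at the start, 45 (52.3%) were higher and 23 (26.7%) lower. By at least 2-fold on the log2(RPKM + 1) scale, 14 of the 86 (16.3%) were higher, where 6.27% of all tested genes were, and 1 (1.16%) was lower, where 5.37% were. With 0.1 added to each RPKM in place of 1, the counts were 24 higher and 5 lower, where 8.69% and 8.38% of all tested genes were, and with libraries scaled to an equal sum over the listed genes they were 11 higher and 5 lower, where 3.09% and 12.6% were. Of 75 tested genes with another M1 H3K18ac peak and no H3K18la at the start, 21 (28.0%) were higher and 2 (2.67%) lower by at least 2-fold. Among the 48 genes that had H3K18la as well, 2 were higher and 7 lower by at least 2-fold. Of genes with no region at a start and H3K18la there in M1 only, 37.2% were higher and 2.33% lower by that much. The shares were 5.77% and 3.63% with H3K18la in both states, and 3.03% and 12.6% with it in M0 only. Scaling each library to an equal sum over the listed genes moved the median of all genes to -0.38 and the counts to 37 higher and 72 lower of the 134, with the 134 at -0.21, still above the median of all genes.

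The largest rise was in Saa3, an acute-phase protein gene. Its 4 libraries at 24 h had 70700, 68200, 54700 and 97100 RPKM, against 16.9, 13, 10.2 and 13.3 RPKM at 0 h. The log2 fold change was 12.30 ± 0.16 SE (limma adjusted p = 4.8e-33), and the groups were far apart. Its region (chr7:46716377-46719334, enrichment 3.076 in M1 and 3.633 in M0) began 701 bp before the start, and the nearest H3K18la peak lay 5.6 kb off. Mmp13, a collagenase, had 47.0, 56.7, 51.0 and 49.9 RPKM at 24 h and 3.41, 3.39, 2.95 and 3.75 RPKM at 0 h (3.57 ± 0.10, limma adjusted p = 1.1e-24). It peaked early, averaging 3.37 RPKM before stimulation, 834 after 4 h, 758 after 8 h, 94.8 after 16 h and 51.1 after 24 h, and its H3K18la distance was 48.0 kb. F10 had 8.48, 7.51, 7.42 and 10.3 RPKM at 24 h and 0.452, 0.454, 0.504 and 0.732 RPKM at 0 h (2.61 ± 0.08, limma adjusted p = 1.2e-23). Its region covered the start and the 250 bases before it. Acp5, the tartrate-resistant acid phosphatase of osteoclasts and macrophages, had 25.9, 28.9, 26.4 and 36.7 RPKM at 24 h and 3.04, 2.9, 3.14 and 3.35 RPKM at 0 h (2.88 ± 0.09, limma adjusted p = 2.2e-23). In none of these 4 did the groups overlap, which follows largely from picking the largest called rises.

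Further large rises were found in genes of several kinds. Pilra, an inhibitory receptor of myeloid cells, averaged 59.1 ± 6.75 RPKM at 24 h and 11 ± 1.12 at 0 h, and Pilrb1, of the activating partner family, 13.4 ± 1.35 and 2.07 ± 0.102 (SD, n = 4 each). Reads of these related genes, like those of LOC100038947 (8.59 ± 0.706 at 24 h and 0.917 ± 0.212 at 0 h), may be split by the counting between near copies. Mmp8, the collagenase of neutrophils, had 32.2, 45.5, 45.8 and 36.2 RPKM at 24 h and 10.9, 9.68, 8.0 and 10.7 RPKM at 0 h (1.91 ± 0.15, limma adjusted p = 4.2e-13). Of 10 neutrophil markers 6 were in the table and summed to 31.1 to 43.1 RPKM at 24 h and 17.0 to 24.9 RPKM at 0 h, and the part of such cells in the values of Mmp8 was not tested. Averages were 15.9 RPKM at 24 h and 3.62 at 0 h for S100a8, 9.39 and 8.3 for S100a9, 9.39 and 7.6 for Csf3r and 0.453 and 0.263 for Camp. The granule genes Ngp (0.288 at 24 h and 2.03 at 0 h) and Ltf (0.0357 and 0.374) had lower averages at 24 h. Mmp8 was late: it averaged 9.82 RPKM before stimulation, 6.06 after 4 h, 8.95 after 8 h, 20.9 after 16 h and 39.9 after 24 h. Tgm1, a transglutaminase of the skin barrier, averaged 4.92 ± 1.12 RPKM at 24 h and 0.569 ± 0.146 at 0 h, and Fabp3 12.0 ± 2.43 and 3.63 ± 0.168. The log2 fold changes were 2.32 for Pilra, 2.22 for Pilrb1, 2.33 for LOC100038947, 1.90 for Tgm1 and 1.47 for Fabp3, all past the threshold.

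On the log2(RPKM + 1) scale 1 gene, Sh2d1b1, which codes for an adaptor of the SLAM receptors, fell by at least 2-fold. It had 0.683, 0.588, 0.577 and 0.782 RPKM at 24 h and 2.31, 2.85, 2.74 and 3.1 RPKM at 0 h (-1.18 ± 0.05, limma adjusted p = 3.5e-19), with no overlap. Clec2i, a lectin that natural killer cell receptors bind, averaged 2.29 ± 0.226 RPKM at 24 h and 5.12 ± 0.732 at 0 h (-0.89), and the adenylate kinase gene Ak1 2.83 ± 0.159 and 5.24 ± 0.272 (-0.70). Impdh2, the enzyme that commits purines to guanine nucleotides, had 8.12, 9.38, 8.0 and 8.81 RPKM at 24 h and 15.2, 14.1, 13.5 and 12.8 RPKM at 0 h (-0.64 ± 0.08, limma adjusted p = 1.4e-08). Fold changes of low genes are understated on this scale: Kmo averaged 0.108 ± 0.0142 RPKM at 24 h and 0.62 ± 0.0889 at 0 h, Jup 0.492 ± 0.0899 and 1.23 ± 0.0467, and Slc22a18 0.555 ± 0.145 and 1.28 ± 0.204. Dph1, of diphthamide synthesis, fell by 0.66 on the log2 scale, and the plakoglobin gene Jup by 0.58, Slc22a18 by 0.55, the kynurenine hydroxylase gene Kmo by 0.55, the neuromedin gene Nmb by 0.45 and the sulfite oxidase gene Suox by 0.25. The regions at these starts were short, from 292 bp at Jup to 1289 bp at Sh2d1b1.

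The genes with the highest mean level over all 32 libraries were Saa3, Mmp13, Pilra, Hmox2 and Lyz1. Hmox2, the constitutive heme oxygenase, averaged 71.3 ± 11.6 RPKM at 24 h and 52.2 ± 1.35 at 0 h (0.43 ± 0.07, limma adjusted p = 1.1e-06), a rise that becomes -0.04 when libraries are scaled to an equal sum. Lyz1, a lysozyme, averaged 82.1 ± 14.1 RPKM at 24 h and 40.3 ± 3.69 at 0 h (1.00 ± 0.14), and its near copy Lyz2 averaged 36900 and 16500 RPKM, so that reads of Lyz2 counted for Lyz1 cannot be told apart.

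At 4 h against 0 h the 134 genes split 56 higher, where 42.5% of all tested genes were, and 69 lower, where 42.7% of all were. The median was -0.21, against 0.00 over all tested genes. This lean came mainly from the 48 genes that had H3K18la as well, whose median was -0.36, with 18 called up and 29 down. In the 86 without H3K18la at the start the median was -0.01, with 38 called up and 40 down. By at least 2-fold, 24.4% of these 86 rose and 9.3% fell, where 13.8% and 11.5% of all tested genes did. Scaled to an equal sum, which moved the median of all genes to -0.44, the counts for the 134 were 40 higher and 84 lower. Among the genes without H3K18la at the start that are named here, the largest early rises were those of Saa3 (9.59 on the log2 scale), Mmp13 (7.57) and Il6. Il6 had 133, 158, 137 and 145 RPKM at 4 h and 0.0336, 0.0601, 0.0399 and 0.0198 RPKM at 0 h (7.12 ± 0.08, limma adjusted p = 1.1e-34), and by 24 h its libraries were back between 0.169 and 0.469 RPKM. Its region of 5933 bp (chr5:30007673-30013605, enrichment 4.098 in M1 and 3.906 in M0) spanned the start, and the nearest H3K18la peak lay 58.8 kb away. Cxcl1, a chemokine for neutrophils, had 32, 27.1, 26.2 and 27.6 RPKM at 4 h and 0.0497, 0.0648, 0.0459 and 0.0707 RPKM at 0 h (4.78 ± 0.12, limma adjusted p = 1.4e-26). Ccl22 and Ccl17, neighbours that code for ligands of the receptor CCR4, averaged 12.9 ± 1.39 and 17.9 ± 0.64 RPKM at 4 h, while at 0 h Ccl17 was listed at 0 in all 4 libraries and Ccl22 at 0 in 2 and at 0.01 and 0.0104 RPKM in the other 2. They are kept among markers of alternative activation, and both were at most 1.09 RPKM at 24 h. Impdh2 was higher at 4 h (19.5 ± 0.618 RPKM at 4 h and 13.9 ± 1.0 at 0 h, 0.46), which becomes -0.04 when libraries are scaled to an equal sum.

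At 24 h with LA added at 4 h, set against 24 h without it, 42 of the 134 genes were higher, where 25.5% of all tested genes were, and 26 were lower, where 21.7% of all were. The median log2 difference was 0.02, against 0.01 over all tested genes. Of the 86 without H3K18la, 27 were higher and 18 lower. Differences of at least 2-fold were found in 5 of the 86 (5.81%), all higher, where 0.694% of all tested genes were higher by that much. Of the 75 genes with another M1 H3K18ac peak and no H3K18la at the start, 4 (5.33%) were. Scaled to an equal sum, 1 of the 86, Slc6a12, remained higher by at least 2-fold, where 0.348% of all tested genes were, while Mmp13 had a log2 difference of 0.97, Cxcl1 of 0.85, Tgm1 of 0.84 and F10 of 0.83, each still past the limma threshold. Fitted on these 8 libraries alone the counts for the 134 were 29 higher and 8 lower, and scaled to an equal sum, which moved the median of all genes to -0.15, they were 25 higher and 56 lower.

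The 5 were Slc6a12, Mmp13, Tgm1, F10 and Cxcl1. Slc6a12, a transporter of betaine and GABA, had 6.76, 3.97, 5.55 and 6.3 RPKM with LA at 24 h and 0.718, 0.926, 0.89 and 0.947 RPKM without it (1.81 ± 0.09 SE, limma adjusted p = 9.5e-16). Mmp13 had 124, 104, 94.7 and 151 RPKM with LA and 47.0, 56.7, 51.0 and 49.9 RPKM without it (1.18 ± 0.10, limma adjusted p = 7.2e-11). Tgm1 had 12.4, 9.17, 10.3 and 12.4 RPKM with LA and 4.18, 4.47, 4.45 and 6.58 RPKM without it (1.04 ± 0.10, limma adjusted p = 5.5e-10). In all 3 the lowest library with LA was above the highest without it. F10 had 21.4, 16.2, 17.5 and 17.7 RPKM with LA and 8.48, 7.51, 7.42 and 10.3 RPKM without it (1.03 ± 0.08, limma adjusted p = 1e-11). Cxcl1 had 3.73, 1.97, 1.92 and 3.1 RPKM with LA and 0.46, 0.916, 0.858 and 0.907 RPKM without it (1.02 ± 0.12, limma adjusted p = 3e-08). These groups did not overlap either. The 5 were picked as the largest called differences, so separate groups follow largely from the choice. The share of all tested genes with separate groups was not counted. Mmp13 and Cxcl1 stayed below their 4 h levels in either case. Mmp8 averaged 78.1 ± 22.7 RPKM with LA and 39.9 ± 6.79 without it (0.92), and Saa3 104000 ± 23100 and 72700 ± 17800 (0.52 ± 0.16, limma adjusted p = 0.0091), where 2 libraries with LA, at 96100 and 84200 RPKM, were below the highest without it, at 97100. At earlier times several of these differences had the other sign: with LA at 8 h the log2 difference was -0.73 in Saa3, -0.70 in F10, -0.46 in Mmp8 and -0.30 in Mmp13, and at 16 h it was -0.45 in Saa3, all past the limma threshold. Cxcl1 was higher with LA at 8 h (0.69) and 16 h (0.57), and Slc6a12 (1.35), Tgm1 (0.95) and Mmp13 (0.44) at 16 h. Whether the LA difference itself differed between times was not tested.

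The 5 largest falls with LA were smaller. Impdh2 had 6.43, 6.31, 5.74 and 5.25 RPKM with LA and 8.12, 9.38, 8.0 and 8.81 RPKM without it (-0.47 ± 0.08, limma adjusted p = 1.6e-05), with no overlap. Dph1 averaged 0.938 ± 0.0892 RPKM with LA and 1.66 ± 0.206 without it (-0.46), BC026585 3.68 ± 0.531 and 5.39 ± 0.976 (-0.45), the G protein gamma gene Gng7 1.07 ± 0.124 and 1.69 ± 0.205 (-0.38), and Spryd4 4.53 ± 0.418 and 5.76 ± 0.833 (-0.28). The fall of Spryd4 had an adjusted p of 0.0041 in limma over all groups and 0.068 when fitted on the 8 libraries alone.

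**Figure D5:**
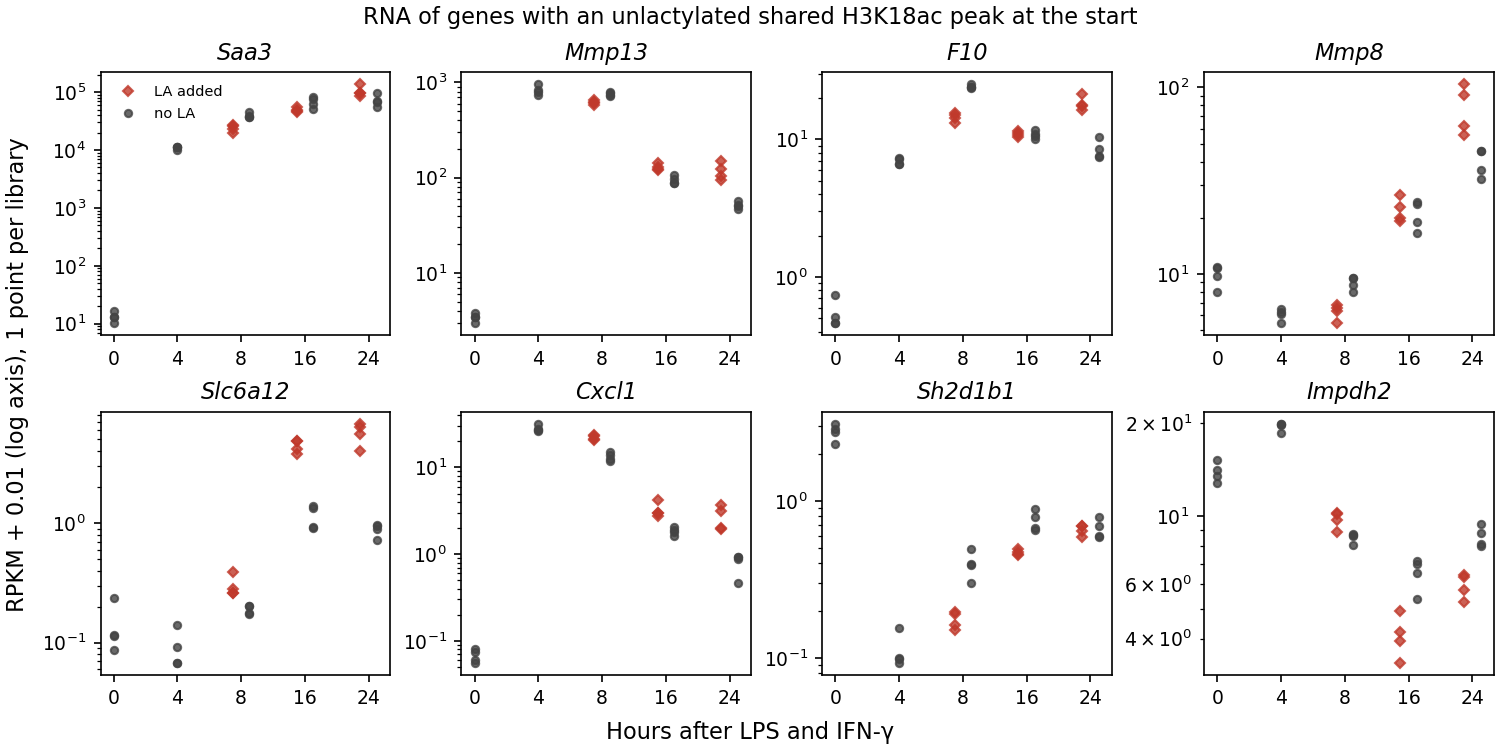
RPKM + 0.01 (log axis) in each of 4 libraries per group for 8 genes with a shared unlactylated H3K18ac peak at the start, by hours of LPS and IFNg; red diamonds had LA added at 4 h and grey circles did not. Saa3 stays high to 24 h, Mmp13 and Cxcl1 peak at 4 h, and the diamonds of Slc6a12 lie above the circles at 24 h.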

How the data were processed

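H3K18la and H3K18ac peaks were deposited as 1 broad peak list per library, with a fold enrichment (a ratio), -log10 p, -log10 q and a score, 10 times the -log10 q, for each peak, per the file headers and format. The submitters' processing notes name MACS2 2.2.1, Bowtie2 2.2.6 and SAMtools 0.1.19, and mm10, with no role; the threshold and control of the calls are not given in the sources used here. The authors' spike-in table holds the count of mouse and spike-in reads. RNA was deposited as RPKM; the notes name HISAT2 2.1.0 and featureCounts 1.5.0-p1. The same deposited table gives the authors' log2 fold changes, p-value and FDR, which were not used.

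Overlap meant at least 1 shared bp, and the functions were tested on simulated intervals with bedtools 2.31.1. Starts were those of RefSeq on GRCm38.p6, matched by symbol (11177 of 11184 RNA genes matched, 9057 with a listed start). RNA was tested with limma 3.58.1 (R 4.3.3), after adding 1 to each RPKM and taking log2, in 1 model of all 32 libraries (24 residual degrees of freedom) with Benjamini-Hochberg adjustment over 9942 genes that reached 1 RPKM in 4 or more libraries, after a check on simulated data. Fold changes on this scale understate those of low genes. Named genes were the 10 largest called changes in each direction at 24 h, the 5 largest with LA, the 5 highest levels and up to 3 per gene list, among genes without H3K18la at the start; named peaks were the extremes of enrichment, of the M1 to M0 ratio and of length. For genes named as the largest called changes, groups of libraries without overlap follow largely from that choice. The regions and gene lists were chosen with earlier results of these data known. Other overlap, length, window, scaling, filter and pseudocount choices, leave-one-out fits and a replicate block were tried. A few genes and the regions beside them are not reported here by name.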

Additional observations from a re-analysis of the deposited data

Results flagged for a closer look

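Among 64 groups of 4 libraries checked, those of 16 genes with a shared unlactylated region at the start, 6 held 1 library far from the other 3 by Dixon's test at 95%, which flags about 1 group in 20 by chance. At 24 h, 1 library had 9.64 RPKM of LOC100038947 and the others 8.15 to 8.35, 1 had 6.58 RPKM of Tgm1 and the others 4.18 to 4.47, and 1 had 0.46 RPKM of Cxcl1 and the others 0.858 to 0.916. At 4 h, 1 library had 0.144 RPKM of Sh2d1b1 and the others 0.083 to 0.0904, 1 had 1.09 RPKM of Clec2i and the others 0.786 to 0.811, and 1 had 18.6 RPKM of Impdh2 and the others 19.7 to 19.9.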

How the results depend on the processing

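The number of regions stayed within 1.5 times of 11125 under every other length limit, distance to H3K18la, cover and H3K18la threshold tried, but fell to 767 when both H3K18ac lists were limited to a -log10 q of at least 5. The share of regions at a start was 3.32% with the start inside the peak, 16.4% within 5000 bp, and 6.26% with either end of genes without a listed start, an alternative chosen after seeing the data. Equal sums over the listed genes gave 37 higher and 72 lower at 24 h against 0 h and 25 higher and 56 lower with LA, with calls over all genes going from 51.6% to 20.1% higher for 24 h, from 54.0% to 18.1% with LA and from 49.9% to 26.5% for 4 h. Genes of regions with no H3K18la within 5000 bp gave 41 higher and 23 lower at 24 h, and those of regions covered over at least 50% gave 42 higher; fewer genes were tested in both (82 and 92). With LA, a fit on the compared groups alone gave 8 lower. Leaving out 1 library gave 61 to 67 higher and 40 to 44 lower at 24 h, 54 to 57 higher and 68 to 69 lower at 4 h, and 38 to 45 higher and 19 to 24 lower with LA. Libraries of equal number correlated in their deviations at -0.26, 0.13, 0.51 and 0.28 for 24 h against 0 h, where 2 of 4 correlated best with their own number, at -0.14 to 0.18 for 4 h and at -0.64 to 0.13 with LA; since not every pair passed 0.1 they were not treated as paired. The replicate block gave 66 higher and 42 lower at 24 h, 56 higher and 69 lower at 4 h, and 42 higher and 26 lower with LA. Of 676 values of single genes under alternatives, 670 kept direction and call. Under equal sums 4 turned: Hmox2 at 24 h to -0.04, and at 4 h LOC100038947 to -0.17, Dph1 to -0.37 and Impdh2 to -0.04. The causes were not tested. Peak values rest on 1 library each, and weak lactylation below the caller's threshold was not measurable from the lists.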
